A study of Mus musculus with 9 samples.

Results

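The genes described are 40 that encode RNA splicing proteins: 8 classical SR proteins, 6 SR-like proteins, 13 hnRNPs, 6 helicases, 4 other core spliceosome proteins and 3 RBM proteins, out of 21887 coding genes in the mouse annotation. They were taken as a list of gene names, chosen with earlier results of these data known. An open region was assigned to a gene when it overlapped the gene's bounds on mm10 extended by 1000 bp on both sides, which gave 106 of the 80827 regions. Of these, 58 lie at a gene end (1000 bp outside to 500 bp inside it) and 48 elsewhere in the gene.

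Open chromatin was read by ATAC-seq, in which a transposase inserts sequencing adapters where DNA is accessible, in alphaTC1 cells, a mouse line of pancreatic alpha cells. All 9 cultures were transduced and collected at day 5: 3 with an empty vector, 3 with an shRNA against Smndc1 and 3 with an shRNA against Atrx, which the labels call biological replicates. Smndc1 is a Tudor-domain splicing factor that acts with the U2 particle, and Atrx is a chromatin remodeler. An shRNA acts on the RNA, so accessibility is no check of either knockdown, and 1 shRNA stands for each target. The counts come from whole cultures, so fewer cells with an open site and less opening per cell cannot be told apart.

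SR proteins carry arginine-serine repeats, bind exons and recruit the spliceosome to nearby splice sites. The hnRNPs coat nascent RNA and often oppose them, so that the balance of both families sets which exons are kept. Helicases of the DEAD-box and Ski2-like families unwind RNA pairings as the spliceosome assembles, activates and is taken apart. Most of these genes are housekeeping genes with CpG-rich promoters, expressed in endocrine cells as in other tissues, and many SR protein genes control their own RNA through a poison exon.

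RefSeq (GRCm38.p6, the build of mm10) lists a promoter window for 39 of the 40 genes. The 250 bases before the first-listed start were searched on both strands for 6 motifs, and a match is a description of letters, not of binding. TGACGT, the core of the element bound by CREB and ATF factors, was in the windows of 11 of the 39 genes (28.2%). That compares with 7.56% of 17492 coding genes and 10.9% of the 8962 with an open region on any of their windows. Of the 39 members, 38 are among these 8962. The window searched need not be the open one. CCGGAAG, an ETS-type motif, was in 10 (25.6%), against 9.13% and 14.9%. Against the same 8962 genes, CCAAT was at 48.7% and 37.9%, TATAAA at 10.3% (4 genes) and 5.65%, GGGCGG at 61.5% and 61.9%, and TGACTCA at 2.56% and 2.79%. Median GC content was 60.8% in the members and 60.4% in those 8962 genes, with a median of 22 and 17 CpG sites. The 9 genes with TGACGT within 100 bases of the start are shown because this motif differs most in share; each line gives 30 bases from RefSeq, 5′ to 3′ along the gene, with the match on either strand in capitals:
Ddx17, chr15:79546783-79546812, minus strand: acgccaacactgTGACGTcgtgccgacggc
Hnrnpa2b1, chr6:51469895-51469924, minus strand: tacgtaacggcgTGACGTaagcggagacgc
Hnrnpm, chr17:33685511-33685540, minus strand: ggaggcgtggccTGACGTccagggggcgtg
Prpf8, chr11:75486716-75486745, plus strand: gctcgggctgcaACGTCAattggagatgtc
Srsf11, chr3:158036671-158036700, minus strand: cgaccacggctgTGACGTttcaaggtgcca
Srsf3, chr17:29032566-29032595, plus strand: tttgtagcgcttACGTCAcagcctgcgccg
Srsf6, chr2:162931446-162931475, plus strand: tgctgcgcgacgACGTCAcgcgctgcgccg
Tra2a, chr6:49264062-49264091, minus strand: aggtccgcccctTGACGTcaggcgccgggg
Tra2b, chr16:22266050-22266079, minus strand: gcggtaaggtagACGTCAcgtccggtttgg
The first base of these matches lies between position -82 (Srsf11 and Srsf3) and position -18 (Hnrnpa2b1), where -1 is the base just before the start. Tra2a also holds matches on the other strand at -49 and -25, which are not in capitals. The match at -25 overlaps the one shown.

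Longer promoter windows are shown for 4 genes: Rbm39 and Ddx46, whose promoter regions are the most and the least open per kb, and Srsf1 and Srrm2, which hold the regions called changed further on. Each is the 250 bases before a RefSeq start, with matches to any of the 6 motifs in capitals:
Rbm39, chr2:156180239-156180488, minus strand: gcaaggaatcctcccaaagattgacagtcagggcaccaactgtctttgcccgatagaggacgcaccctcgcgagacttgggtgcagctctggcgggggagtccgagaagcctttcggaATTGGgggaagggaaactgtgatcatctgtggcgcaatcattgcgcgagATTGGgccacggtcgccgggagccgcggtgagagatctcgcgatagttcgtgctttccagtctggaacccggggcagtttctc
Ddx46, chr13:55634749-55634998, plus strand: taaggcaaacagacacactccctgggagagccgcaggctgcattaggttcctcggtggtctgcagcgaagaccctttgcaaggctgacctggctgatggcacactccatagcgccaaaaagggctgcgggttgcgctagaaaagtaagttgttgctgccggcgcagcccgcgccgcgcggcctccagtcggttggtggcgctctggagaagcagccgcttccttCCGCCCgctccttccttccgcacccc
Srsf1, chr11:88047123-88047372, plus strand: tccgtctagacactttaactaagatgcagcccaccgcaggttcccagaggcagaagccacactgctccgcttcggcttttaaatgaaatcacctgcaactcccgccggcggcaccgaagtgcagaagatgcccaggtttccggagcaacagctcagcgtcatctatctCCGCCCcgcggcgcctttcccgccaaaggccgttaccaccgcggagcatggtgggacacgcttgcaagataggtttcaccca
Srrm2, chr17:23802937-23803186, plus strand: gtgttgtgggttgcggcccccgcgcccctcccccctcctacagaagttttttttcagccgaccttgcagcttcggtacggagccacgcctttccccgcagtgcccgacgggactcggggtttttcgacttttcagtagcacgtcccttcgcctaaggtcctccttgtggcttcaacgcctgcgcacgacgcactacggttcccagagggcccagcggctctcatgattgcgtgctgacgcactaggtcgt
The Rbm39 window holds CCAAT on the other strand, at positions -132 and -83. GGGCGG stands on the other strand at -82 in Srsf1 and at -26 in Ddx46, and the Srrm2 window holds none of the 6 motifs.

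Library totals over all regions ran from 5.29 to 8.15 M counts. Contrast differed between replicates in each group alike: of all counts, the strongest 10% of regions held 38.5% to 38.8% in replicate 3 of each group and 43.3% to 48.8% in the other 6 libraries. Levels are given as TMM CPM, counts scaled to the library's size and composition, and, where named as evened, after a smooth correction of each library's contrast (trended offsets). The alpha cell genes Gcg and Pcsk2 had an open end region in the empty vector libraries, at 35.2 ± 11.2 and 62.6 ± 12.5 CPM (mean ± SD, n = 3). The beta cell genes Mafa and Nkx6-1 and the duct gene Sox9 were also open (51.7 to 62.1 CPM), as were, at lower levels, the acinar gene Cela1 (19.4 CPM) and the leukocyte gene Cd68 (15.4). Ins1, Ins2, Pdx1, Sst, Hhex, Ppy, Cpa1, Ptf1a, Krt19, Ptprc, Pecam1, Cdh5, Col1a1 and Pdgfrb had no end region.

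Promoters of the splicing genes were open almost throughout and mostly above the level of other promoters. Of the 39 genes with a RefSeq window, 38 had an open region on it, against 51.2% of coding genes with a window. The exception was Rbm25, a regulator of 5′ splice sites, whose open regions lie at the outer gene bound instead. In the empty vector libraries the 42 promoter regions of these 38 genes had a median of 59.8 CPM per kb, and all 8667 open promoter regions of coding genes one of 42.1. Above that median stood 35 of the 42, and 7 were in the top 10% of all promoters. The replicate spread at these regions was close to that of other promoters, with a median coefficient of variation of 23.1% against 19.2%, and replicate 3 was the lowest empty vector library at all 42.

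**Figure D1:**
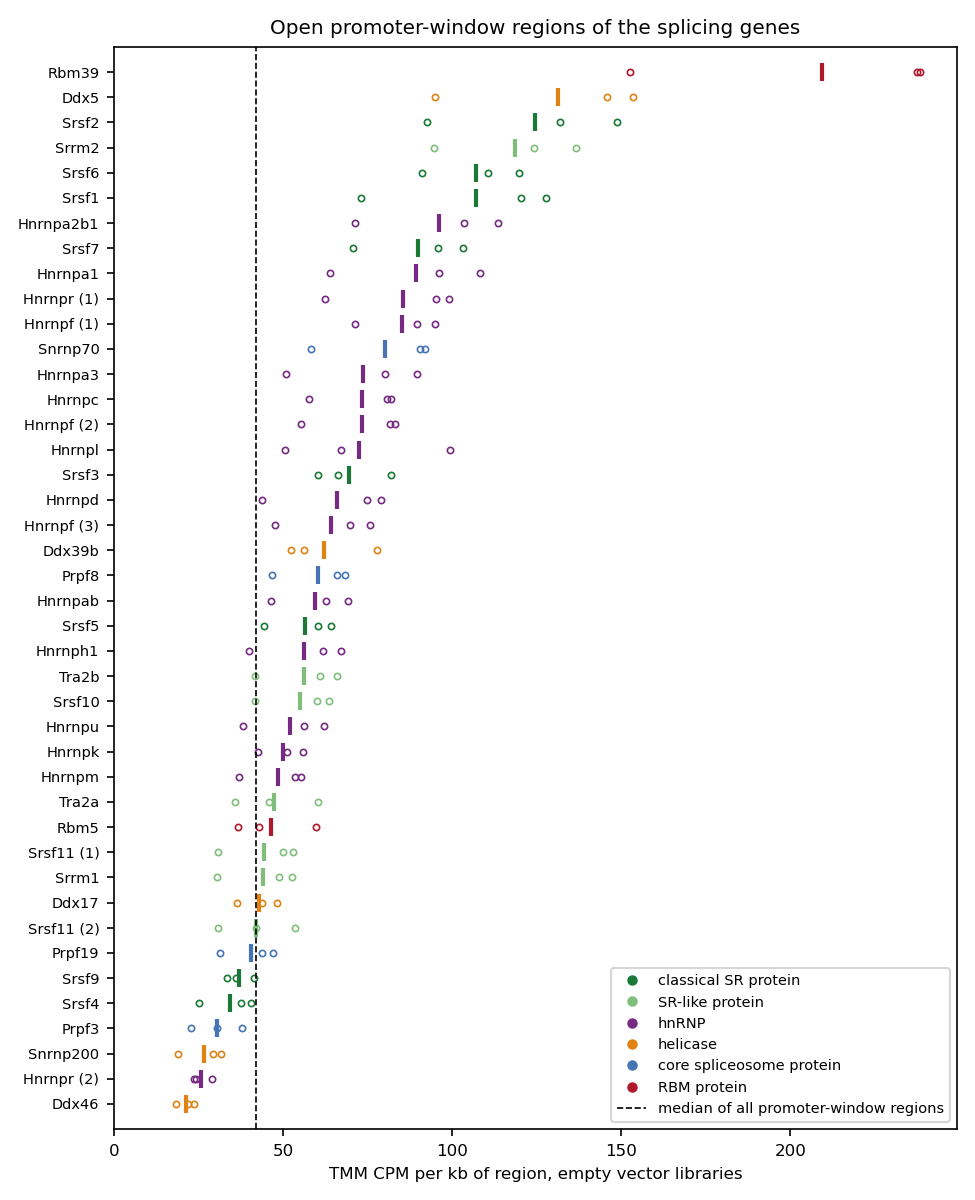
Promoter accessibility of the splicing genes in the empty vector libraries, in TMM CPM per kb of region, 1 row per open promoter-window region (numbers in brackets tell regions of 1 gene apart). Circles are the 3 libraries, the thick tick is their mean, colours give the role, and the dashed line is the median of all open promoter regions, 42.1; Rbm39 is highest at 209.4 and Ddx46 lowest at 21.3.

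Rbm39, a splicing factor that partners U2AF, was at 237.4, 238.3 and 152.5 CPM per kb in empty vector replicates 1 to 3. It was the most open member promoter in all 9 libraries, above 99.8% of coding promoter regions. Next in the order came Ddx5, the p68 DEAD-box helicase, at 153.6, 145.6 and 94.8 CPM per kb. Its highest library stood just above the lowest of Rbm39, yet Rbm39 was above Ddx5 within each of the 9 libraries. Srsf2, the SC35 protein of nuclear speckles, followed at 131.8, 148.9 and 92.5 CPM per kb. In the whole order, 40 of the 41 neighbouring pairs overlapped over the 3 libraries, where the low level of replicate 3 widens every range. Compared within libraries, 10 of the 41 pairs kept their order in all 3 controls and 2 in all 9 libraries, so most neighbours do not differ beyond their spread.

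After them stood Srrm2, the large speckle scaffold, at 118.4 ± 21.6 CPM per kb (SD, n = 3 here and below), Srsf6 at 107.1 ± 14.7, and Srsf1, the founding SR protein, at 107.1 ± 29.7. The lowest were Prpf3, a protein of the U4/U6 particle, at 30.4 ± 7.47, Snrnp200, the Brr2 helicase that unwinds that particle, at 26.6 ± 6.73, and Ddx46, the helicase that remodels U2, at 21.3 ± 2.70. Ddx46 was at 23.7, 21.9 and 18.3 in the 3 libraries and the lowest member in 6 of 9. By role, the median promoter region was at 79.7 CPM per kb for classical SR proteins and 69.1 for hnRNPs. It was at 50.5 for core spliceosome proteins, 47.2 for SR-like proteins and 42.8 for helicases. The RBM proteins had only 2 promoter regions, at 46.5 and 209.4 (median 127.9). The ranges overlap: 34.4 to 124.4 for classical SR proteins, 25.8 to 96.1 for hnRNPs and 21.3 to 131.3 for helicases.

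Several of these promoters are shared with a neighbour that starts in the same region, and then the counts cannot be split between the genes. This held for 10 of the 42 regions, in 8 of them with another coding gene (19.0%), against 8.46% of all open coding promoter regions that lie on the windows of 2 or more coding genes. Pairs of this kind are Hnrnpa2b1 with Cbx3 and Hnrnpa1 with Cbx5, each beside an HP1 protein gene, and also Ddx5 with Cep95, Srsf2 with Mfsd11, Hnrnpk with Rmi1 and Srsf11 with Lrrc40. Away from promoters the genes were much less open. The 13 regions at 3′ ends (12 genes) had a median of 14.4 CPM per kb, the highest of them, 143.8 at Ddx5, lying on the start of Polg2. The 38 regions in gene bodies, off promoters and ends, had a median of 8.43 (22 genes).

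With Smndc1 shRNA, 1 of the 106 regions rose and 0 fell, by the quasi-likelihood F test of edgeR on all 80345 regions that passed the filter on low counts, with Benjamini-Hochberg adjusted p under 0.05. All 106 passed that filter. Over all regions, 0.0199% were called higher and 0.136% lower. With Atrx shRNA 0 of 106 were called by the same edgeR test (0.0% of all regions), with 6 at an unadjusted p under 0.05 (5.75% of all regions), all higher. DESeq2 called 0 with either shRNA, of the 82 (Smndc1) and 106 (Atrx) to which it gave an adjusted p; over all regions it called 0.00779% higher and 0.0571% lower with Smndc1 shRNA and 0.0% with Atrx shRNA. Both shRNAs were compared with the same 3 empty vector libraries. The 1 called region lies in the 3′ part of Srrm2, at chr17:23822839-23823881, inside the gene bounds and within 1000 bp of the 3′ end of Elob, which runs the other way.

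That Srrm2 region held 9.18, 8.30 and 13.5 CPM in empty vector replicates 1 to 3, 20.0, 20.7 and 25.2 with Smndc1 shRNA, and 16.2, 15.1 and 20.9 with Atrx shRNA. All 6 shRNA libraries were above all 3 controls, and replicate 3 was the highest of its group each time. The log2 fold change with Smndc1 shRNA was 1.09 ± 0.23 (SE; edgeR adjusted p = 0.0220), and with Atrx shRNA 0.76 ± 0.24 (adjusted p = 0.557). The difference between the shRNAs, 0.33 ± 0.23, did not pass the test (edgeR adjusted p = 0.9996). With trended offsets the values were 1.17 ± 0.22 (edgeR adjusted p = 0.000289) and 0.83 ± 0.22 (adjusted p = 0.0607). The raw counts behind it were 62 to 86 in the controls, 122 to 149 with Smndc1 shRNA and 79 to 129 with Atrx shRNA.

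The Srrm2 call was lost in 4 of the 9 TMM fits that each left out 1 library: empty vector replicate 1 or 2, or Smndc1 shRNA replicate 1 or 3. Over these fits the fold change stayed between 0.96 and 1.32 and the adjusted p ran from 0.00156 to 0.331. With trended offsets the call held in 9 of 9 (highest adjusted p 0.0467), and without replicate 3 of every group it was 1.21 ± 0.25 (edgeR adjusted p = 0.00170). DESeq2 gave 1.10 with an adjusted p of 0.0610.

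No other region of Srrm2 was called. Its promoter region stood at 75.2 ± 13.7 CPM in the controls, 66.6 with Smndc1 shRNA and 83.1 with Atrx shRNA (log2 fold changes -0.18 and 0.14). The nearest other region of the gene, 1 of the 38 in gene bodies, held 5.84, 6.79 and 8.25 CPM in the same order of groups. The end region at the 5′ bound of the gene stood at 30.4, 26.8 and 33.5 CPM.

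With trended offsets a second region was called, with both shRNAs. It lies in Srsf1, at chr11:88048200-88048700, its centre 1077 bp after the RefSeq start and so beyond the promoter region itself. With these offsets 2 of the 106 regions were called higher with Smndc1 shRNA (0.409% of all regions) and 1 with Atrx shRNA (0.185%), and 0 lower with either (0.713% and 0.0709%). In evened CPM the Srsf1 region held 29.9, 37.3 and 30.9 in the controls, 51.1, 55.4 and 34.5 with Smndc1 shRNA, and 63.3, 47.4 and 44.2 with Atrx shRNA. All 3 Atrx shRNA libraries were above the controls, while replicate 3 of Smndc1 shRNA fell among them.

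The log2 fold change of the Srsf1 region was 0.66 ± 0.14 with Atrx shRNA (edgeR adjusted p = 0.00653) and 0.53 ± 0.14 with Smndc1 shRNA (adjusted p = 0.0240). With TMM factors it was 0.68 ± 0.27 (edgeR adjusted p = 0.771) and 0.50 ± 0.27 (adjusted p = 0.662), on levels of 33.6 ± 8.04 CPM in the controls, 53.8 ± 20.6 and 47.7 ± 18.1. Leaving out 1 library at a time kept the trended call in 7 of 9 fits for Atrx shRNA and in 4 of 9 for Smndc1 shRNA. It was lost without Atrx shRNA replicate 1 or empty vector replicate 1, and for Smndc1 shRNA in these fits: without any empty vector replicate, or without Smndc1 shRNA replicate 1 or 2.

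**Figure D2:**
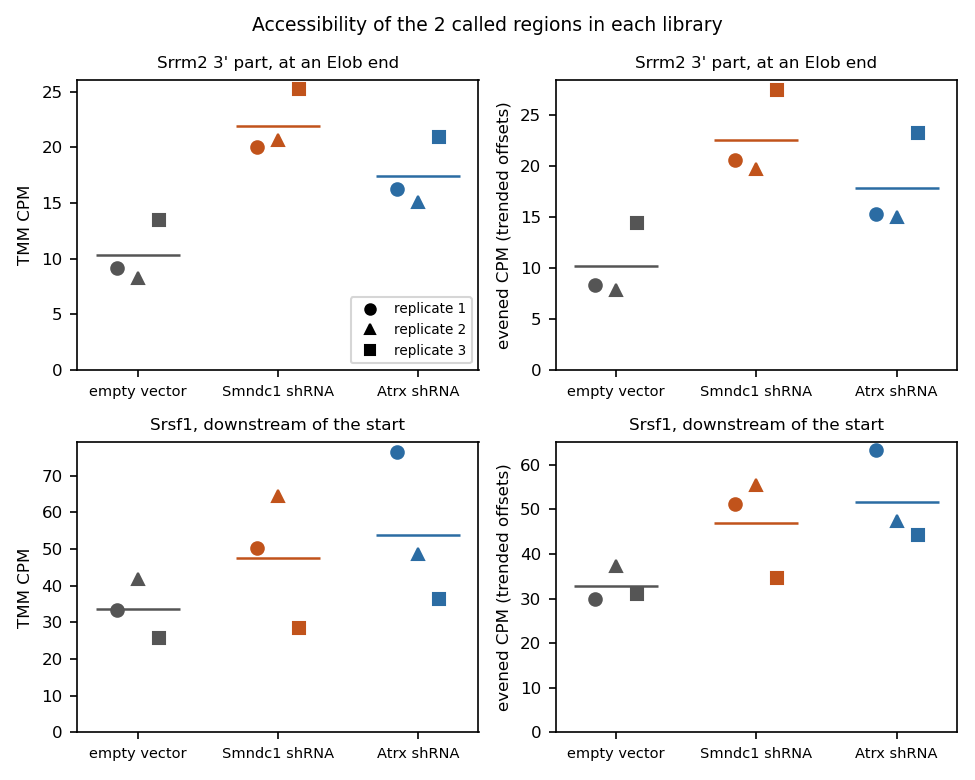
The 2 called regions in each library, in TMM CPM (left) and in CPM after trended offsets (right); symbols are replicates and lines are group means. In the Srrm2 region all 6 shRNA libraries lie above the 3 controls on both scales; in the Srsf1 region replicate 3 is low on the TMM scale in every group.

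Around this site, the promoter and 3′ end regions of Srsf1 had fold changes of the same sign and smaller size. Its promoter region held 85.1 ± 23.6 CPM in the controls, 93.7 with Smndc1 shRNA and 111.1 with Atrx shRNA, with log2 fold changes of 0.14 and 0.39 by TMM. The region at the 3′ end held 23.9, 26.4 and 31.8 CPM, with 0.14 and 0.41. Neither region passed with TMM factors or with trended offsets. With trended offsets and the replicate number as a block, the promoter region was called with Atrx shRNA (0.36 ± 0.10, edgeR adjusted p = 0.0390).

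**Figure D3:**
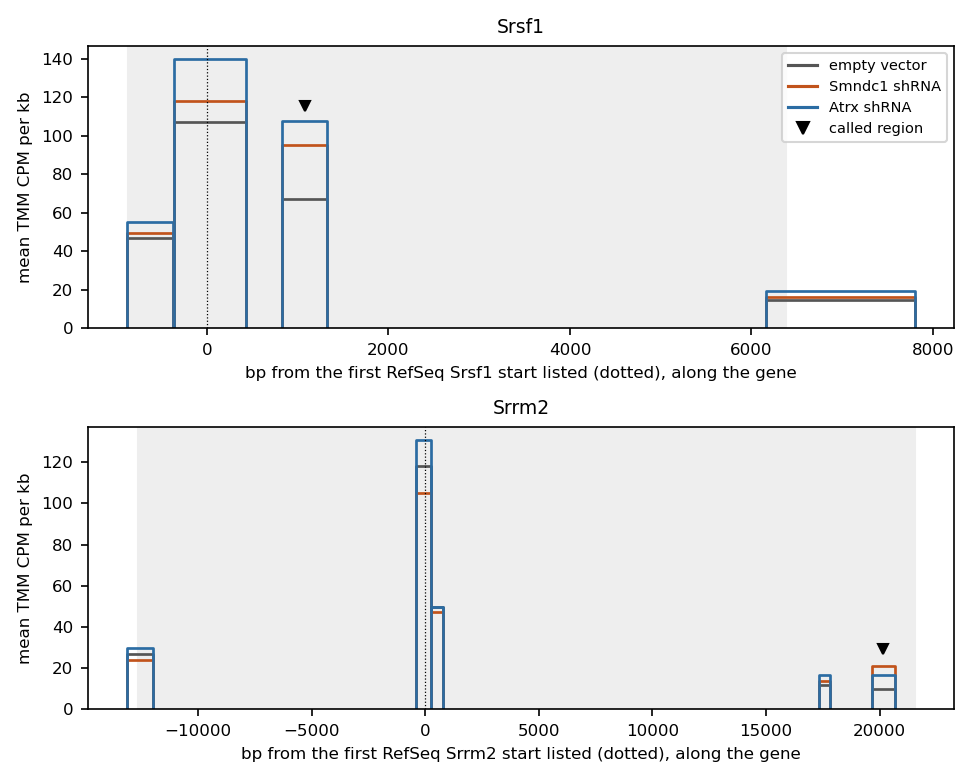
Open regions of Srsf1 and Srrm2 along the gene, in bp from a RefSeq start (dotted; grey marks the gene bounds), with the mean TMM CPM per kb of each group as the height of an outlined box. The triangle marks the called region: in Srsf1 beside the promoter, in Srrm2 near the 3′ end, where the control level is 9.88 CPM per kb.

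To give 1 value per gene, the counts of a gene's end regions were summed and tested over 11712 coding genes, with levels in TMM CPM of the counts at gene ends. For 37 of the 40 genes there was such a sum; the open regions of Hnrnpf, Hnrnpk and Hnrnpu all lie farther inside the gene bounds. In edgeR 0 of the 37 sums were called with Smndc1 shRNA (0.0427% of all genes were called higher and 0.265% lower), 0 with Atrx shRNA (0.0%) and 0 between the shRNAs (0.00854% higher, 0.0% lower). DESeq2 called 0 in each, of 29, 30 and 37 sums with an adjusted p. Its shares over all genes were larger than those of edgeR, at 0.712% higher and 1.23% lower, 0.647% and 0.262%, and 0.0256% and 0.0256%. Trended offsets also gave 0 in each, where 0.205% and 0.512% of all genes were called higher and lower with Smndc1 shRNA, 0.0683% and 0.0256% with Atrx shRNA, and 0.00854% and 0.0% between the shRNAs. At an unadjusted p under 0.05 there were 1, 9 and 7 of the 37, against 11.99%, 12.4% and 9.50% of all genes. The median SE of a member's log2 fold change was 0.12. Changes of that order were not detectable, and larger values, up to 0.41 with Atrx shRNA, did not pass either. With factors taken from all regions in place of gene ends the SE was wider, as for Hnrnpa2b1 with Atrx shRNA (0.28 ± 0.25).

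Among classical SR proteins, the smallest p with Atrx shRNA was that of Srsf1, at 94.7, 89.8 and 106.8 CPM in the controls and 109.9, 112.2 and 148.7 with Atrx shRNA. The groups were apart by a small gap, and the log2 fold change was 0.35 ± 0.13 (edgeR adjusted p = 0.263). With Smndc1 shRNA it was Srsf4, a large SR protein, at 120.8, 128.9 and 104.5 CPM in the controls and 111.3, 118.1 and 83.2 with the shRNA, which overlap (-0.18 ± 0.13, edgeR adjusted p = 0.638). Over the 8 genes, 6 had a positive value with Atrx shRNA and 3 with Smndc1 shRNA. Per kb of end region the most open was Srsf2, at 254.1 CPM over all 9 libraries, and the least Srsf1, at 50.8, since the start of Srsf1 lies inside its bounds.

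Of the 6 SR-like genes, Srrm1, a coactivator that bridges exonic enhancers and the splicing machinery, was at 107.8, 99.7 and 81.2 CPM in the controls and 140.4, 130.5 and 112.4 with Atrx shRNA. All 3 Atrx shRNA libraries were higher than all controls (0.41 ± 0.15, edgeR adjusted p = 0.261). Srsf11, a speckle protein that binds U2AF, was at 86.1, 66.6 and 67.1 in the controls and 91.3, 75.8 and 86.5 with Smndc1 shRNA (0.20 ± 0.14, edgeR adjusted p = 0.599). These overlap, and with Atrx shRNA the value was negative, at 58.9, 70.1 and 63.0 CPM (-0.20 ± 0.14). The sequence-specific activators Tra2a and Tra2b were at 0.28 ± 0.13 and 0.18 ± 0.11 with Atrx shRNA and at 0.02 each with Smndc1 shRNA. Per kb, Tra2b was the most open of the group (118.6 CPM) and Srsf11 the least (47.8).

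For the hnRNPs, 9 of 10 sums had a positive value with Atrx shRNA and 3 of 10 with Smndc1 shRNA. Hnrnpa2b1, which binds RNA export and sorting signals, had the smallest p of any member with Atrx shRNA. It was at 315.3, 328.3 and 263.9 CPM in the controls and 371.0, 395.1 and 358.9 with Atrx shRNA, all above the controls (0.31 ± 0.10, edgeR adjusted p = 0.213). Its end regions also hold the start of Cbx3. Hnrnpa1, a repressor of exon inclusion, was at 269.7, 297.4 and 235.3 in the controls and 261.4, 249.5 and 207.8 with Smndc1 shRNA, which overlap (-0.16 ± 0.10, edgeR adjusted p = 0.583). Hnrnpc, which binds uridine runs, was the most open per kb (143.0 CPM) and Hnrnph1, a binder of G runs, the least (21.4), because only the 3′ end of Hnrnph1 counts here.

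Among the helicases, Ddx5 was the 1 member with an unadjusted p under 0.05 with Smndc1 shRNA. Its end sum was 384.7, 340.4 and 344.4 CPM in the controls, 398.4, 440.1 and 407.0 with Smndc1 shRNA and 456.9, 395.5 and 390.4 with Atrx shRNA. Both shRNA groups were above all controls (0.22 ± 0.09 for each, edgeR adjusted p = 0.320 and 0.311), and the sum includes the starts of Cep95 and Polg2. Its paralog Ddx17 was at 108.3, 97.3 and 106.0 in the controls, 120.6, 116.0 and 127.5 with Smndc1 shRNA and 124.0, 131.3 and 122.8 with Atrx shRNA. Again neither group overlapped the controls (0.22 ± 0.11 and 0.28 ± 0.11, edgeR adjusted p = 0.429 and 0.296). The helicases Ddx39b, Ddx23, Ddx46 and Snrnp200 act during spliceosome assembly and activation. Their values ran from -0.08 to 0.24 with Smndc1 shRNA and from -0.05 to 0.11 with Atrx shRNA. Per kb the range in this group ran from 34.2 CPM (Snrnp200) to 308.4 (Ddx5).

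Of the core spliceosome genes, Snrnp70, which encodes the U1-specific protein that recognises the 5′ splice site with U1 RNA, was at 105.6, 106.2 and 88.1 CPM in the controls. With Atrx shRNA it was at 147.7, 125.1 and 124.0, all higher (0.40 ± 0.17, edgeR adjusted p = 0.318). With Smndc1 shRNA it was at 93.1, 182.3 and 103.5, so that a single library stands out (0.34 ± 0.17, edgeR adjusted p = 0.438; -0.03 without that replicate 2). Prpf8, the protein at the centre of the catalytic core, was at 183.6, 202.5 and 164.0 in the controls, 188.3, 214.8 and 229.8 with Smndc1 shRNA and 137.0, 196.4 and 164.3 with Atrx shRNA. The groups overlap, and its difference between the shRNAs was 0.35 ± 0.12 (edgeR adjusted p = 0.398); its 3′ region lies beside the start of Rilp. Per kb, Snrnp70 was the most open (192.4 CPM) and Prpf3 the least (61.2).

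For the RBM proteins, Rbm25 was at 94.2, 94.9 and 77.0 CPM in the controls and 98.7, 116.5 and 126.4 with Atrx shRNA, above the controls in all 3 libraries (0.35 ± 0.15, edgeR adjusted p = 0.331). Rbm39 was at 269.5, 268.4 and 225.0 in the controls and 210.4, 236.6 and 223.6 with Smndc1 shRNA, which overlap (-0.19 ± 0.10, edgeR adjusted p = 0.492). Per kb, Rbm39 was the most open gene of all 37 (397.3 CPM), and Rbm25 the least of its group (84.1).

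**Figure D4:**
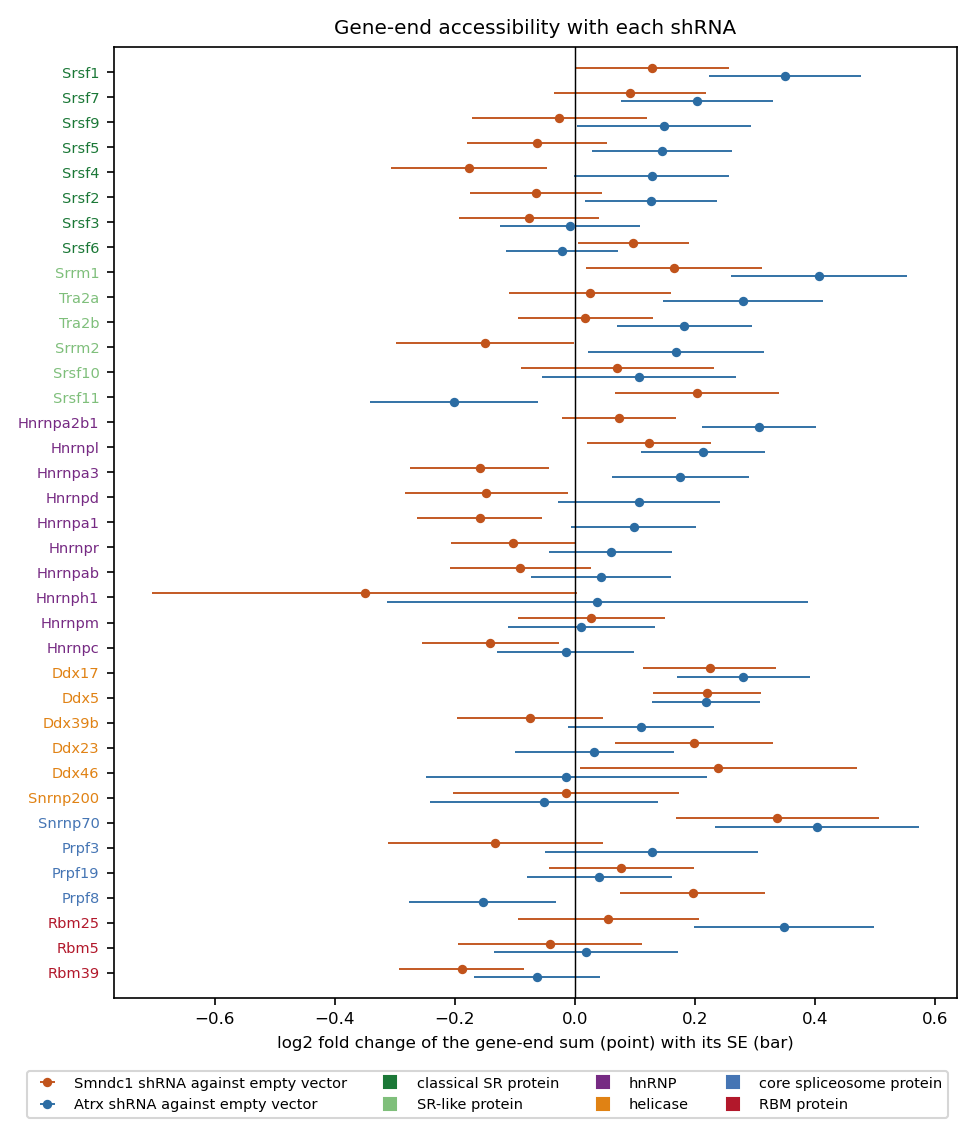
Log2 fold change of each gene's summed end regions with Smndc1 shRNA (orange) and Atrx shRNA (blue) against the same empty vector libraries; points are edgeR estimates with TMM factors, bars 1 SE, and label colours give the role. With Atrx shRNA 29 of 37 points lie above 0 and with Smndc1 shRNA 19 of 37; none passed the test.

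With Atrx shRNA, small positive values were frequent over the list although no sum was called. Of the 37 sums, 29 were positive with a median log2 fold change of 0.11, while 48.2% of all 11712 genes were positive with a median of -0.01. The sums of 10 genes were higher in all 3 Atrx shRNA libraries than in any control (9.16% of all genes) and 0 were lower (9.76%); in evened CPM it was 7 and 0 (10.1% and 10.4%), since Srsf1, Tra2b and Ddx5 overlapped there. The members of the 10 named above are Srsf1, Srrm1, Hnrnpa2b1, Ddx5, Ddx17, Snrnp70 and Rbm25, and the other 3 were Tra2b, Hnrnpa3 and Hnrnpl. These counts are over genes measured in the same libraries, so they are not independent of each other. The median was 0.06 without empty vector replicate 3 (28 positive) or without Atrx shRNA replicate 1 (28), and 0.17 without empty vector replicate 2 (31).

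At the promoter regions, some of which are also part of the end sums, the sign by TMM rested on single libraries. With Atrx shRNA 32 of 42 were positive by TMM (median 0.11), against 44.1% of the 8667 open coding promoter regions (median -0.03). With trended offsets it was 35 of 42 (median 0.11), against 46.4% (median -0.02). By TMM the median was -0.09 without Atrx shRNA replicate 1 (11 positive) and -0.05 without empty vector replicate 3 (18 positive). With trended offsets it stayed between 0.06 and 0.15 when 1 library was left out (29 to 36 positive). In TMM CPM the groups were apart at 0 of the 42 (0.865% of promoter regions apart and higher, 3.48% lower). In evened CPM all 3 Atrx shRNA libraries were above all controls at 12 of the 42 (8.92% of promoter regions) and below them at 2 (11.1%). The edgeR test called 0 of the 42 with either scaling; at an unadjusted p under 0.05 there were 0 with TMM factors (2.47% of promoter regions) and 10 with trended offsets (13.9%), 9 of them higher.

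Summed over the 42 promoter regions, the controls held 2678, 2789 and 1842 TMM CPM, the Smndc1 shRNA libraries 2362, 2964 and 1840, and the Atrx shRNA libraries 3356, 2605 and 2086. On this scale the groups overlap, and replicate 3 was the lowest in each group. In evened CPM the sums were 2403, 2462 and 2291 in the controls, 2412, 2481 and 2296 with Smndc1 shRNA, and 2666, 2526 and 2584 with Atrx shRNA. Here the 3 Atrx shRNA libraries were above all others, and the Smndc1 shRNA libraries overlapped the controls.

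**Figure D5:**
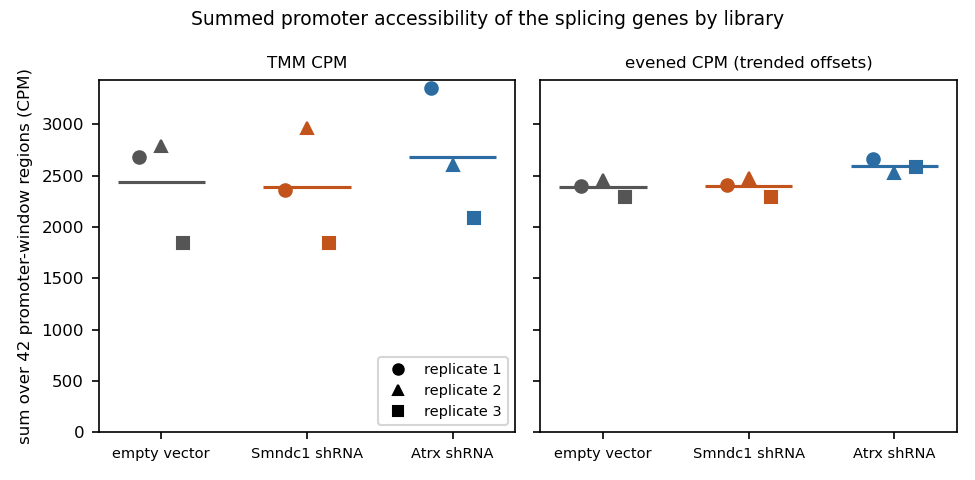
Sum over the 42 promoter-window regions of the splicing genes in each library, in TMM CPM (left) and after trended offsets (right); symbols are replicates and lines are group means, on an axis from 0. On the left replicate 3 is low in every group; on the right the Atrx shRNA libraries (2526 to 2666) lie above the controls (2291 to 2462).

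With Smndc1 shRNA the list as a whole stayed near 0. Of the 37 gene-end sums 19 were positive (median 0.02, all genes 0.01), and of the 42 promoter regions 16 (median -0.05), against 44.0% of open coding promoters (median -0.03). Leaving out 1 library moved these medians to either side of 0, from -0.05 to 0.04 for the sums (lowest without Smndc1 shRNA replicate 2) and from -0.22 (without the same library) to 0.08 (without Smndc1 shRNA replicate 3) for the promoter regions. The groups were apart and higher at 2 sums, Ddx5 and Ddx17 (7.38% of all genes), and lower at 0 (9.08%). The 3′ end regions had more positive values: 11 of 13, with a median of 0.18, against 55.9% of 1872 such regions of coding genes (median 0.04). None of the 13 was called by edgeR, 0 had an unadjusted p under 0.05 with TMM factors (6.46% of such regions) and 3 with trended offsets (13.2%).

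Between the shRNAs 0 of 106 regions were called by edgeR with TMM factors (0.0224% of all regions higher with Smndc1 shRNA and 0.0535% lower) and 0 with trended offsets (0.197% and 0.382%). DESeq2 called 0 of the 80 with an adjusted p (0.0155% and 0.0341% of all regions). At an unadjusted p under 0.05 there were 1 with TMM factors and 13 with trended offsets, against 5.40% and 9.21% of all regions. Of the 42 promoter regions, 7 were higher with Smndc1 shRNA than with Atrx shRNA (median -0.18 by TMM), against 47.1% of open coding promoters (median -0.02). Without Atrx shRNA replicate 1 that median was 0.03 (24 higher), and without Smndc1 shRNA replicate 3 it was -0.04 (20 higher); with trended offsets it stayed between -0.16 and -0.08. At the gene-end sums it was 9 of 37 (median -0.13, all genes 0.00), with a median of -0.08 without Atrx shRNA replicate 1. The sums of 8 genes were lower in all 3 Smndc1 shRNA libraries than in any Atrx shRNA library (6.88% of all genes). Another 2 were higher, Srsf11 and Srsf6 (7.27%). In evened CPM it was 4 lower and 3 higher. The share of all genes on that scale is not given here, so these counts are not set against it. For Srsf11 the difference was 0.40 ± 0.14, the highest of the 37 (edgeR adjusted p = 0.398).

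A list of 102 other splicing genes (snRNP proteins, spliceosome factors, exon junction proteins and further RNA-binding regulators; 227 regions) served as a comparison. With TMM factors 0 of the 227 were called by edgeR in any of the 3 comparisons, with 14, 15 and 16 at an unadjusted p under 0.05 (8.09%, 5.75% and 5.40% of all regions). DESeq2 called 0 of the 166, 227 and 149 with an adjusted p. With trended offsets, Smndc1 shRNA gave 2 higher and 1 lower, where 0.409% and 0.713% of all regions were called higher and lower. Atrx shRNA gave 2 higher and 0 lower (0.185% and 0.0709% of all regions). A region in Hnrnpul2, a relative of the scaffold protein Hnrnpu, was called with both: 3.91, 6.54 and 4.87 evened CPM in the controls, 10.9, 8.39 and 11.2 with Smndc1 shRNA and 17.8, 11.5 and 9.63 with Atrx shRNA. No library overlapped the controls (0.99 ± 0.28 and 1.34 ± 0.28, edgeR adjusted p = 0.0480 and 0.00605).

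The other called regions of that list lie in Tial1, an RNA-binding splicing regulator (0.66 ± 0.17 with Smndc1 shRNA, edgeR adjusted p = 0.0213), in Eif4a3, the helicase of the exon junction complex (0.98 ± 0.25 with Atrx shRNA, edgeR adjusted p = 0.0416), and at the promoter of Plrg1, a partner of Prpf19 (-0.46 ± 0.13 with Smndc1 shRNA, edgeR adjusted p = 0.0396). Between the shRNAs 1 was called lower with Smndc1 shRNA (0.382% of all regions) and 0 higher (0.197%). It lies in U2af2, which recognises the polypyrimidine tract (-0.55 ± 0.12, edgeR adjusted p = 0.00401). At the gene ends of this list, 71 of 97 sums were positive with Atrx shRNA (median 0.08) and 45 with Smndc1 shRNA (median -0.01), with 0 called. The 29 of 37 and 19 of 37 of the SR, hnRNP and helicase list stand beside these, so the shares of positive values are near each other in both lists.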

How the data were processed

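Per the labels, 9 ATAC-seq libraries (75 bp, paired-end) were made from alphaTC1 cells. The authors deposited 1 table of raw counts per consensus region and library, with the regions on mm10. The submitters' processing notes name MACS2 (2.2.7.1), Bowtie2 (2.4.4), bedtools (2.27.1), SAMtools (2.8.0) and deepTools (3.5.1). Their roles, and the unit counted (read, fragment or insertion), were not given in the sources used here. Of the columns of per-sample values, 0 were left unmatched to a sample.

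Regions were placed on genes by the bounds in RefSeq (GRCm38.p6, the build of mm10), and promoter windows (250 bases before to 50 after a start) came from the same source. Ddx23 has no window there, so its promoter is not analysed here. A region can belong to more than 1 gene.

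The main test was edgeR's quasi-likelihood F test (edgeR 4.0.16, limma 3.58.1, R 4.3.3) on all 9 libraries with TMM factors and filterByExpr (minimum count 10), with Benjamini-Hochberg adjustment over all features and a threshold of 0.05. The SE is the fold change over the square root of F. Trended offsets were a loess curve per library (span 0.3, 4 iterations). Gene-end sums had their own TMM factors and are on another scale than region CPM. Alternatives included DESeq2 1.42.0, other factors and filters, a replicate block and each library left out; factors of all regions, trended offsets joined with a stricter threshold or with replicate 3 left out everywhere, and promoter medians without 1 library were chosen after seeing the data. The fits were also run on simulated counts with known changes. These held no difference in contrast between libraries, so they do not test how the trended offsets correct it. Python 3.11.15 with pandas 2.3.3, numpy 2.4.6 and matplotlib 3.10.9 did the rest.

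Genes named with values were, by rule, members with a called region, and in each role the gene with the smallest p in each comparison with the empty vector and the most and least open per kb; others were named after their values were seen. The genes, the comparison list and the tests were chosen with earlier results of these data known.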

Additional observations from a re-analysis of the deposited data

How the results depend on the processing

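With Smndc1 shRNA the 1 called region became 2 with trended offsets (also without replicate 3 of every group), 0 with DESeq2 and 0 at an adjusted p under 0.01. It was 0 or 1 when 1 library was left out, and 1 to 3 when trended offsets were used as well. The calls over all regions moved too. Without empty vector replicate 1 they were 1 higher and 0 lower of 80663, and without empty vector replicate 3 204 and 405 of 80622. With trended offsets as well they were 73 and 173, and 542 and 675. With Atrx shRNA the 0 called regions became 1 with trended offsets, also without replicate 3 of every group and at an adjusted p under 0.01. It stayed at 0 when 1 library was left out with TMM factors, and was 0 to 2 when trended offsets were used as well. The cause was not tested. Between the shRNAs no region was called under any setting run. The TMM and the median-of-ratios factors, both filters on low counts and a fit of only the 6 libraries compared gave the same counts.

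For each library the deviation of its log CPM from its group mean was taken. These deviations, not the levels themselves, were correlated between libraries of different groups. For same-numbered libraries the correlation lay between -0.04 and 0.42 over regions and between 0.05 and 0.57 over gene-end sums. Over regions, 5 of 9 libraries correlated best with their own number. The replicate 3 pairs, which share the low contrast, stood at 0.31 to 0.42 and 0.51 to 0.57, but only 2 of the other 6 pairs were over 0.1 on either measure, so the numbers were not taken to pair the samples. With the replicate number as a block, 1 region was called with Smndc1 shRNA and 1 with Atrx shRNA (3 and 6 with trended offsets as well), while 1.58% and 0.288% of all regions were called (2.63% and 0.998%). At gene-end sums the block gave 0 with Smndc1 shRNA, 3 with Atrx shRNA (Srrm1, Snrnp70 and Hnrnpa2b1) and 1 between the shRNAs (Prpf8). Over all genes it called 3.2%, 3.59% and 1.37%. With trended offsets as well it gave 0, 2 and 1, while 3.65%, 3.53% and 1.17% of all genes were called.

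The difference between the shRNAs at the Srsf1 region changed sign without Smndc1 shRNA replicate 3 (0.09 by TMM, 0.037 with trended offsets) and without Atrx shRNA replicate 1 (0.169 and 0.049), over a range from -0.45 to 0.17. The Snrnp70 sum with Smndc1 shRNA ran from -0.034 to 0.52, negative without replicate 2. Among the other alternatives for single regions and genes, 492 kept direction and call, 26 gained a call and 5 lost one. Counts of 62 to 149 at the Srrm2 region, and 3 libraries a group, limit the precision of its fold change.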
